A study of Mus musculus with 9 samples.

Results

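The liver clears ethanol in 3 steps, and 10 genes that carry them out were followed here: Adh1, Adh4, Adh5, Adh7, Cyp2e1 and Cat for ethanol, Aldh2 and Aldh1b1 for acetaldehyde, and Acss1 and Acss2 for acetate. They were taken by gene symbol from a table of 55253 symbols, and all 10 were found. The livers came from 5 male C57Bl/6J mice fed a Western diet and given sweetened drinking water with 10% alcohol (WD+alcohol) over 23 weeks, starting at 10 weeks of age, and from 4 male C57Bl/6J controls on chow and tap water, whose titles give the same 23 weeks. The diet, the alcohol and the sweetening were given together and set against a group with none of them, so each comparison below takes them jointly. The labels used do not give the controls' age at the start. A difference in age, if there was one, cannot be told apart from the joint effect. Each library of whole-liver RNA was taken as 1 mouse. Libraries read the 3′ end of each mRNA, so counts do not grow with transcript length. Levels of different genes can be compared only roughly, since reads of a gene can be lost or shared in counting.

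Ethanol is oxidised to acetaldehyde mainly by cytosolic alcohol dehydrogenases, which pass electrons to NAD+. The cytochrome P450 enzyme CYP2E1 does the same at the endoplasmic reticulum using NADPH and oxygen, and catalase in peroxisomes can do it using hydrogen peroxide. Acetaldehyde, the toxic intermediate, is oxidised to acetate mainly in mitochondria by aldehyde dehydrogenases. Much of the acetate leaves the liver, and the rest can be joined to coenzyme A by acetyl-CoA synthetases. CYP2E1 protein is known to rise in drinkers in large part because ethanol slows its breakdown, a change that mRNA does not record.

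Promoters are shown for the most abundant of the 10 genes and for the pair with the smallest p-values in the comparison, so that what lies around their starts can be read beside their levels. Each window runs from 250 bases before the transcription start to 50 after it, as given by RefSeq for mouse build GRCm38.p6. Capitals mark TATAAA (the TATA box), CCAAT (the CCAAT box), GGGCGG (a GC box), CACGTG (an E-box) and TCACNCCAC (a form of the sterol regulatory element), each searched on both strands, so a reverse match reads ATTGG or CCGCCC.
Cyp2e1, chr7:140763569-140763868, plus strand: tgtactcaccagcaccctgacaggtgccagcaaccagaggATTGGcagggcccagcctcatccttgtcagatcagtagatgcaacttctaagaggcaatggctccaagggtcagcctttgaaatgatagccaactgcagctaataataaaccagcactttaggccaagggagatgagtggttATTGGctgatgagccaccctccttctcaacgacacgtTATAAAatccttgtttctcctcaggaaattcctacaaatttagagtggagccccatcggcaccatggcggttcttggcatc
Aldh1b1, chr4:45798772-45799071, plus strand: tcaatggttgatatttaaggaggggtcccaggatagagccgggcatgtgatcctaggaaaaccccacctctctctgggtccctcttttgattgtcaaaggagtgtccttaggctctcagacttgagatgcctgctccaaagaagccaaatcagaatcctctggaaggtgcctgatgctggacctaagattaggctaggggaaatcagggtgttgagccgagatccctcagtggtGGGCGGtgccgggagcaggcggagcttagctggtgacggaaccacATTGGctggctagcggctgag
Acss2, chr2:155517793-155518092, plus strand: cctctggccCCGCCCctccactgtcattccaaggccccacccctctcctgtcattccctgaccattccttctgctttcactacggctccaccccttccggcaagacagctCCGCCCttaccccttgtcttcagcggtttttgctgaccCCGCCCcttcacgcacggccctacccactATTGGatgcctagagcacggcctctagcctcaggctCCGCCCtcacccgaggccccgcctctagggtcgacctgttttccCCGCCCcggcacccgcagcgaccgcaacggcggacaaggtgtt
The Cyp2e1 window held a TATAAA starting at position -31, a motif found in 13.6% of 32851 such windows in the mouse. The Acss2 window had no TATAAA and 5 copies of GGGCGG, which 35.7% of windows hold at least once. Aldh1b1 had 1 GGGCGG, and all 3 windows held a CCAAT, as did 37.4% of windows. TCACNCCAC was found in 1.24% of windows and in none of the 10 windows matched to 9 of the genes. These matches are descriptions of letters and say nothing about which factors bind.

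Depth ran from 3635860 to 6643645 reads in genes per library, and every library had reads for all 10 genes. Values are CPM, read counts scaled to library size and adjusted with TMM by the authors, in which 1 read was worth between 0.152 and 0.270 CPM. Across 14759 genes averaging 1 CPM or more, limma-trend with Benjamini-Hochberg adjustment called 338 at an adjusted p under 0.05, 238 higher and 100 lower in WD+alcohol livers. Scaled to hepatocyte markers instead, 1869 were called higher and 71 lower, and the median over all genes moved to 0.36 on the log2 scale. All 8 hepatocyte markers were detected and had negative fold changes, of which those of Alb and Apoa1 passed the test, and their summed level ran from 22672 to 35917 CPM in WD+alcohol livers and from 39153 to 58322 CPM in controls. All 9 Kupffer cell and macrophage markers rose, with a sum of 569 to 927 CPM in WD+alcohol livers and 194 to 297 CPM in controls. Folds of the 8 hepatocyte markers ran from 0.524 (Tat) to 0.973 (Apob). In whole liver, fewer hepatocytes, less RNA per hepatocyte and lower levels of single marker genes cannot be told apart. The part of this shift in the levels of the 10 genes was not tested, but values rescaled to the hepatocyte markers are given where they change a call or a sign of one of the 10 genes or a count of calls in a list. Of 6 stellate cell markers 1 rose, Dcn, at 133 to 198 CPM in WD+alcohol livers and 79.6 to 108 CPM in controls. The sum of all 6 overlapped, at 2361 to 2725 CPM in WD+alcohol livers and 2325 to 2628 CPM in controls. Without Col1a1 and Col3a1 it was 164 to 239.9 CPM in WD+alcohol livers and 106 to 139 CPM in controls, most of it Dcn. Of 6 adipocyte markers, Adipoq, Plin1, Lep, Retn and Adig had 0 to 4 reads a library and were not tested. The other, Cfd, rose, with 4.31 to 128 CPM in WD+alcohol livers and 0.379 to 2.52 CPM in controls. In contrast, Col1a1 stood at 1859 to 2217 CPM in WD+alcohol livers and 1924 to 2174 CPM in controls. Col1a2, Sparc and Top2a varied about as little across the 9 libraries, all 4 being examples chosen after their values were seen. Whether the libraries hold RNA of a common source was not tested, and no CPM value here is adjusted for it.

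None of the 10 genes was called higher or lower in WD+alcohol livers by limma-trend. Of all tested genes, 2.29% were called, 1.61% higher and 0.678% lower. By edgeR's quasi-likelihood test the count was also 0, where 2.13% of tested genes were called. By DESeq2 it was 2, Aldh1b1 higher and Acss2 lower, where 3.71% were called, 2.52% higher and 1.19% lower. With hepatocyte-marker scaling it was 2, Aldh1b1 and Aldh2, both higher, where 13.1% were called, 12.7% higher and 0.481% lower, and the log2 fold changes of Adh5 (0.38), Adh7 (0.23), Cat (0.07) and Acss1 (0.10) took a positive sign. At an unadjusted p under 0.05 there were 4 of the 10, namely Adh4, Cat, Aldh1b1 and Acss2, beside 12.2% of all tested genes. Fold changes were positive for 4 genes and negative for 6, with a median log2 fold change of -0.06 against -0.0008 over all tested genes. For 8 of the 10 the 95% interval of the fold change lay within 2-fold in either direction, and Adh4 and Aldh1b1 were the exceptions. In no gene were the groups free of overlap, while 5.34% of tested genes had groups that did not overlap.

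**Figure D1:**
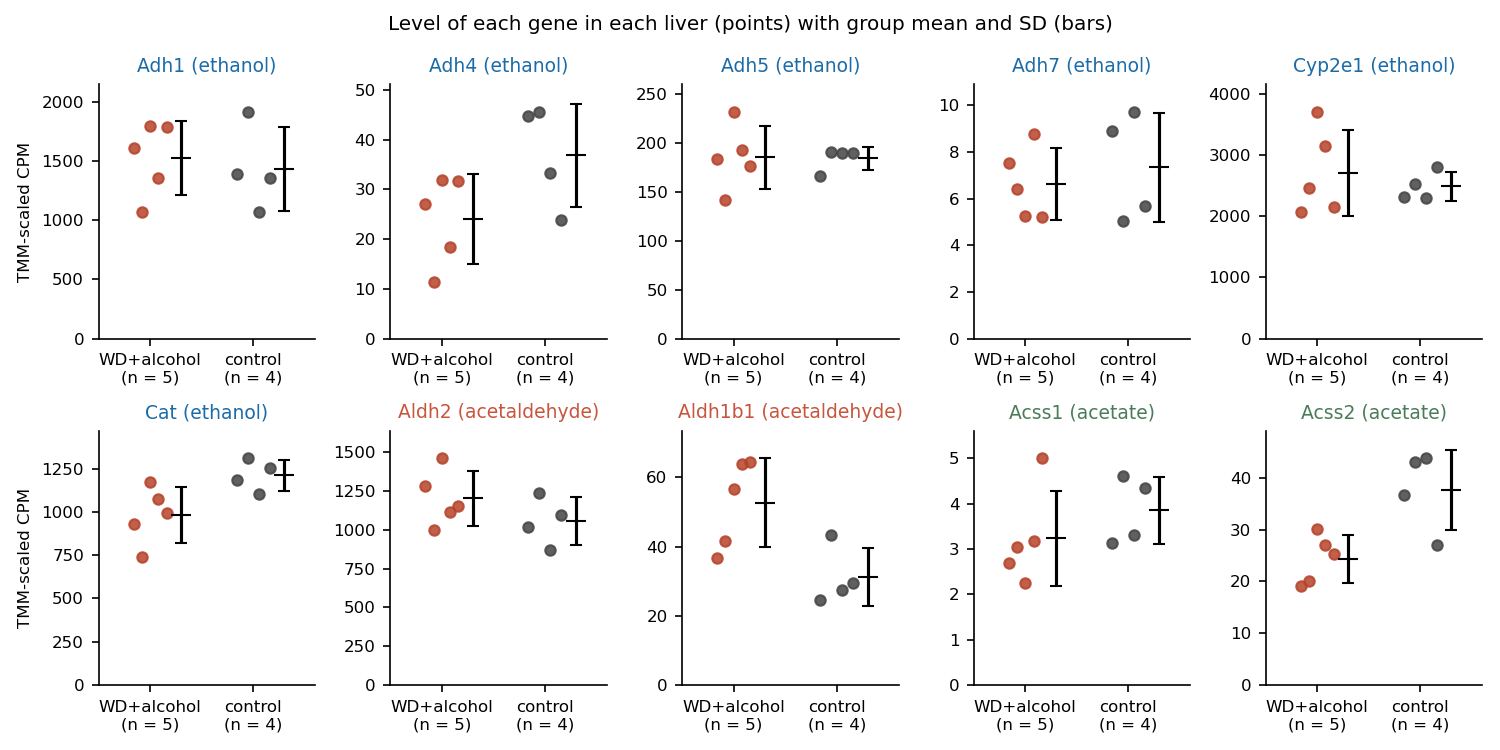
Level of each gene in TMM-scaled CPM on the vertical axis, with 1 point per liver, WD+alcohol (n = 5) left of control (n = 4), and the group mean and SD beside the points. The groups overlap in all 10 panels, and levels are highest for Cyp2e1 and lowest for Acss1.

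The genes of the ethanol step were led by Cyp2e1 and Adh1 in both groups. Cyp2e1 was at 2062, 2463, 3705, 3153 and 2152 CPM in the WD+alcohol livers, against 2315, 2531, 2297 and 2807 CPM in the controls. WD+alcohol livers 3 and 4 lay above every control and livers 1 and 5 below every control, so the group straddled the controls. The means were 2707 ± 703 CPM (SD, n = 5) in WD+alcohol livers and 2487 ± 238 CPM (SD, n = 4) in controls, and the difference in spread was not tested. The log2 fold change was 0.09 with a 95% interval of -0.26 to 0.44 (limma-trend, adjusted p = 0.891), which corresponds to a fold between 0.836 and 1.35. It was -0.03 without WD+alcohol liver 3. The last 300 bases of the Cyp2e1 transcript hold a repeat of up to 188 bases that matches transcripts of 65 other genes, so some of its reads could have been lost or shared in counting.

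Adh1, the class I alcohol dehydrogenase that does most of the hepatic oxidation, was at 1609, 1066, 1795, 1354 and 1789 CPM in the WD+alcohol livers, against 1387, 1916, 1068 and 1356 CPM in the controls. Both groups ran over almost the same range. The means were 1523 ± 312 CPM in WD+alcohol livers and 1432 ± 353 CPM in controls, and the log2 fold change was 0.09 with a 95% interval of -0.28 to 0.47 (limma-trend, adjusted p = 0.896). It was -0.04 without control 3, the control with the least Adh1. Adh1 ranked 54 of all symbols by mean level, and Cyp2e1 ranked 30.

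Cat encodes catalase, the peroxisomal enzyme that breaks down hydrogen peroxide and can oxidise ethanol with it. Its levels were 930.1, 739, 1174, 1074 and 991 CPM in the WD+alcohol livers, against 1184, 1310.0, 1101 and 1252 CPM in the controls. All WD+alcohol livers except liver 3 were below the lowest control. The means were 982 ± 164 CPM in WD+alcohol livers and 1212 ± 89.8 CPM in controls, a fold of 0.802 with a 95% interval of 0.671 to 0.959, and the adjusted p was 0.255 (limma-trend, unadjusted p = 0.0193). The log2 fold change was -0.32 as deposited and 0.07 with values scaled to the hepatocyte markers.

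The remaining alcohol dehydrogenases were far less abundant. Adh4, the class II enzyme of liver that also acts on retinol, was at 27.0, 11.3, 31.9, 18.3 and 31.6 CPM in the WD+alcohol livers, against 44.7, 45.6, 33.2 and 23.9 CPM in the controls. Controls 1, 2 and 3 stood above every WD+alcohol liver, and control 4 lay inside the WD+alcohol range. The log2 fold change was -0.64 with a 95% interval of -1.23 to -0.05 (limma-trend, unadjusted p = 0.0345, adjusted p = 0.345). It was -0.41 without WD+alcohol liver 2, the liver with the least Adh4. The residual spread of Adh4 was larger than that of 95.7% of tested genes.

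Adh5, the class III enzyme that handles glutathione-bound formaldehyde and contributes little to ethanol oxidation, was at 184, 141, 231, 192 and 176 CPM in the WD+alcohol livers, against 166, 191, 189.8 and 189 CPM in the controls. The controls lay inside the range of the WD+alcohol livers. Its log2 fold change of -0.01 had the narrowest interval of the 10 genes, -0.25 to 0.24 (limma-trend, adjusted p = 0.990). Adh7, the class IV enzyme typical of stomach and other epithelia, was low, at 5.20 to 8.79 CPM in WD+alcohol livers and 5.04 to 9.73 CPM in controls, which was 24 to 58 reads a library. Its log2 fold change was -0.11 with a 95% interval of -0.56 to 0.35 (limma-trend, adjusted p = 0.902). Of 5 stomach markers, Gkn1, Gkn2, Tff1 and Muc5ac were at 0 in all 9 libraries. The other, Gkn3, was at 10.8 to 17.2 CPM in WD+alcohol livers and 10.1 to 15.5 CPM in controls. The span of Adh7 overlaps that of 0610031O16Rik on the other strand, which had 241 reads over all libraries. Without known strand use in counting, a share of either count could belong to the other. Whole gene spans were compared, not exons or 3′ ends. On mouse chromosome 3 the alcohol dehydrogenase genes are neighbours in the order Adh7, Adh1, Adh6a, Adh6b, Adh4 and Adh5, so the most abundant of them lies beside one of the least abundant.

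Aldh2 was the more abundant transcript of the acetaldehyde step in every liver. It encodes the mitochondrial enzyme with the highest affinity for acetaldehyde, and its levels were 1285, 998, 1463, 1117 and 1156 CPM in the WD+alcohol livers, against 1017, 1242, 868 and 1099 CPM in the controls. WD+alcohol livers 1 and 3 exceeded every control and liver 2 lay below all controls except control 3. The means were 1204 ± 177 CPM in WD+alcohol livers and 1056 ± 156 CPM in controls. The log2 fold change was 0.19 with a 95% interval of -0.08 to 0.45 (limma-trend, adjusted p = 0.608). Scaled to the hepatocyte markers it was 0.58 and called (adjusted p = 0.0181), and it was 0.22 above the median of all genes there.

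Aldh1b1 encodes the other mitochondrial acetaldehyde dehydrogenase, whose affinity for acetaldehyde is lower. Its levels were 36.7, 41.7, 56.7, 63.9 and 64.5 CPM in the WD+alcohol livers, against 24.6, 43.3, 27.5 and 29.6 CPM in the controls. WD+alcohol livers 3, 4 and 5 stood above every control, and control 2 stood above WD+alcohol livers 1 and 2. The means were 52.7 ± 12.8 CPM in WD+alcohol livers and 31.2 ± 8.30 CPM in controls, a fold of 1.66 with a 95% interval of 1.26 to 2.20. Its adjusted p of 0.0625 (limma-trend, unadjusted p = 0.00172) just missed the threshold, as it did with edgeR's quasi-likelihood test (adjusted p = 0.0668). Aldh1b1 was called higher by DESeq2 (log2 fold change 0.76, adjusted p = 0.00877). It was also called by limma-trend without WD+alcohol liver 1 (adjusted p = 0.0265, 1.38% of tested genes called higher) and without control 2 (adjusted p = 0.0196, 1.51% called higher). Setting all libraries to one total (adjusted p = 0.0224, 2.47% called higher) and array weights (adjusted p = 0.0233, 1.95% called higher) gave the call as well. Over all 9 left-out libraries its adjusted p ran from 0.0196 to 0.185.

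**Figure D2:**
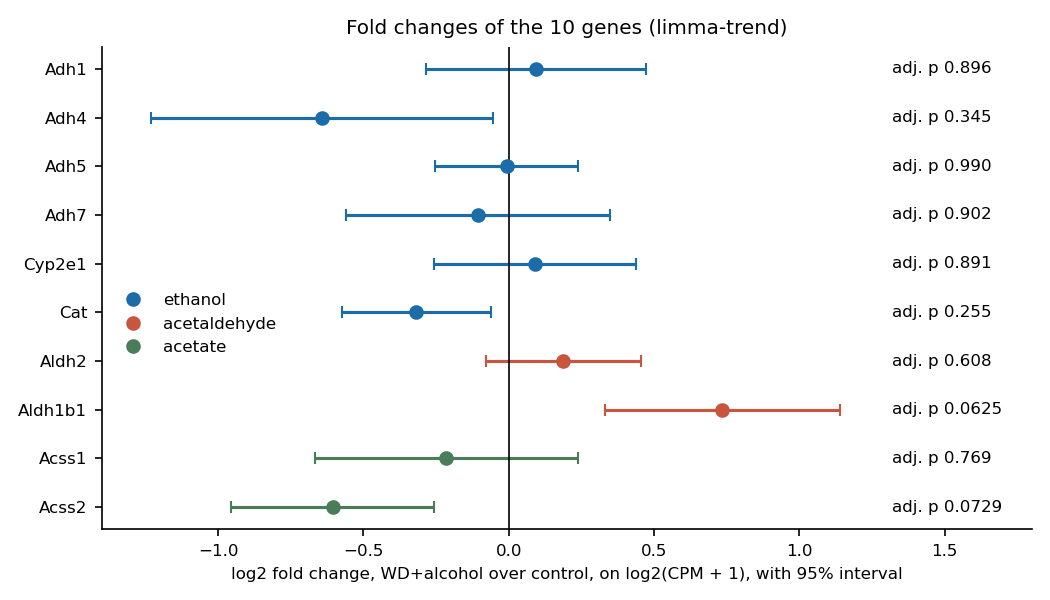
Log2 fold change of each gene, WD+alcohol over control, on log2(CPM + 1), with its 95% interval and its adjusted p from limma-trend, coloured by step. The intervals of Adh4, Cat, Aldh1b1 and Acss2 do not reach 0, and all 10 adjusted p-values are above 0.05.

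The acetate step had the lowest levels. Acss2 encodes the acetyl-CoA synthetase of cytosol and nucleus, a target of the sterol regulatory element binding proteins (SREBPs). Its levels were 19.1, 20.02, 30.2, 27.1 and 25.2 CPM in the WD+alcohol livers, against 36.7, 43.1, 43.8 and 27.1 CPM in the controls. Controls 1, 2 and 3 stood above all WD+alcohol livers, while control 4 lay within their range. The means were 24.3 ± 4.71 CPM in WD+alcohol livers and 37.7 ± 7.73 CPM in controls, a fold of 0.657 with a 95% interval of 0.516 to 0.836. The adjusted p was 0.0729 (limma-trend, unadjusted p = 0.00231) and 0.0710 with edgeR's quasi-likelihood test. Acss2 was called lower by DESeq2 (log2 fold change -0.63, adjusted p = 0.0175). It was called by limma-trend without control 4 (log2 fold change -0.75, adjusted p = 0.0232, 0.589% of tested genes called lower), and over all 9 left-out libraries its adjusted p ran from 0.0232 to 0.194. Scaled to the hepatocyte markers its log2 fold change was -0.23 (adjusted p = 0.327). The span of Acss2 overlaps that of Gss on the other strand, a gene with 1121 reads over all libraries, so a share of either count could belong to the other. Exons and 3′ ends were not compared here either.

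Acss1, the mitochondrial acetyl-CoA synthetase best known from muscle and heart, had 10 to 25 reads a library. It was at 2.25 to 5.00 CPM in WD+alcohol livers and 3.13 to 4.62 CPM in controls. The log2 fold change was -0.21 with a 95% interval of -0.67 to 0.24 (limma-trend, adjusted p = 0.769), an interval that as a fold runs from 0.630 to 1.181. On log2(CPM + 1) the fold of a gene at this level is understated, and so are these bounds.

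Some livers stood at an end of their group for many of the genes. WD+alcohol liver 3 had the highest level of its group in 7 of the 10 genes, and WD+alcohol liver 2 the lowest in 5, namely Adh1, Adh4, Adh5, Cat and Aldh2. Among controls, control 2 was highest in 7 genes and control 3 lowest in 4. Liver 2 had the lowest and liver 3 the highest hepatocyte marker level of the WD+alcohol group, and control 2 the highest of the controls. The part of hepatocyte content in this order of livers was not tested.

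**Figure D3:**
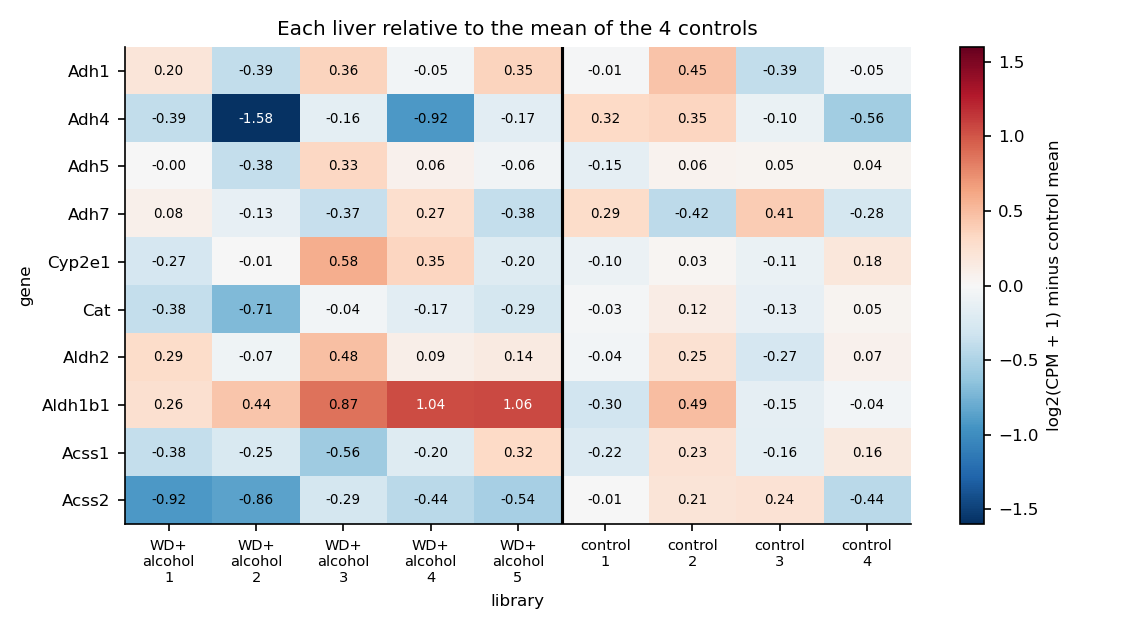
Each cell gives log2(CPM + 1) of 1 gene in 1 liver minus the mean of the 4 controls, with genes in the order ethanol, acetaldehyde, acetate and the WD+alcohol livers left of the controls. Aldh1b1 is positive and Adh4, Cat and Acss2 are negative in all 5 WD+alcohol livers, while Adh1 and Cyp2e1 take both signs.

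The 3 steps differed in how far the summed levels of the groups overlapped. The 6 ethanol genes together were at 4819, 4428, 6943, 5800.1 and 5146 CPM in the WD+alcohol livers, against 5106, 5998, 4698 and 5634 CPM in the controls. The 2 acetaldehyde genes summed to 1257 ± 178 CPM in WD+alcohol livers and 1088 ± 163 CPM in controls. The 2 acetate genes summed to 21.8 to 32.5 CPM in WD+alcohol livers and 31.5 to 47.7 CPM in controls, with control 4 alone inside the WD+alcohol range. Aldh2 made up most of the acetaldehyde sum and Acss2 most of the acetate sum in every liver, so these 2 sums largely repeat single genes. All sums are given as descriptions, with no test.

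Ratios within a liver do not depend on its scaling. Adh1 made up 87.5 ± 1.25% of the 4 alcohol dehydrogenase transcripts in WD+alcohol livers and 85.8 ± 2.77% in controls. Adh4 made up 0.923% to 1.58% of them in WD+alcohol livers and 1.52% to 2.78% in controls. The ratio of Cat to Cyp2e1 was 0.374 ± 0.0763 in WD+alcohol livers and 0.489 ± 0.0330 in controls, and that of Cyp2e1 to Adh1 was 1.84 ± 0.554 in WD+alcohol livers and 1.802 ± 0.384 in controls. Aldh1b1 supplied 2.77% to 5.41% of the summed Aldh2 and Aldh1b1 transcripts in WD+alcohol livers and 2.36% to 3.37% in controls, and thus remained the minor form in every liver. The ratio of Aldh2 to Acss2 was 67.2, 49.9, 48.4, 41.2 and 45.8 in the WD+alcohol livers, against 27.7, 28.8, 19.8 and 40.6 in the controls. Its groups did not overlap, unlike those of the other ratios and shares given here, but it was chosen after its values were seen, and it carries no test.

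Around the 10 genes, 9 lists of other genes were examined, 77 genes in all with 71 tested. Among these 4 rose and 7 fell, 15.5% of those tested beside 2.29% of all tested genes, and 3 of the 7 that fell were SREBP targets. With hepatocyte-marker scaling the balance was the other way, with 22 called higher and 3 lower. By list, that scaling called 2 alcohol-oxidising, 4 aldehyde-oxidising, 4 acetate, 4 P450 and haem, 3 peroxide, 1 NADH, 3 pericentral and 1 regulator gene higher. The lists were chosen with earlier results of these data known, so this share is a description of them. The median log2 fold change of the 71 was -0.04.

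Among other enzymes that can oxidise alcohols, 1 of 3 tested rose and 1 fell. Cyp3a11, a drug-metabolising P450, rose to 1779 ± 514 CPM in WD+alcohol livers, against 474 ± 53.1 CPM in controls (log2 fold change 1.86, limma-trend adjusted p = 9.66e-05). Cyp1a2, a P450 of pericentral hepatocytes, fell to 128 ± 47.2 CPM in WD+alcohol livers, against 349 ± 68.0 CPM in controls (log2 fold change -1.48, adjusted p = 0.0021). Of 7 further aldehyde-oxidising genes tested, Aldh3a2, which oxidises fatty aldehydes, rose to 350 ± 106 CPM in WD+alcohol livers, against 127 ± 17.5 CPM in controls. The aldehyde oxidase gene Aox3 fell to 57.9 ± 11.6 CPM in WD+alcohol livers, against 125 ± 15.2 CPM in controls. All 4 had larger fold changes than any of the 10 genes, and their groups did not overlap, as in 5.34% of all tested genes. They were named because they were called, so this does not describe the rest of their lists.

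Of 9 tested genes in the list around acetate and acetyl-CoA, 1 rose and 1 fell. The monocarboxylate transporter gene Slc16a7 rose to 39.7 ± 7.33 CPM in WD+alcohol livers, against 17.3 ± 5.89 CPM in controls. Its log2 fold change was 1.19 (limma-trend adjusted p = 0.00555). The citrate carrier gene Slc25a1 fell to 131 ± 12.6 CPM in WD+alcohol livers, against 176 ± 12.1 CPM in controls (log2 fold change -0.43, adjusted p = 0.0154), a change that was -0.04 with hepatocyte-marker scaling. The number of these genes called lower was 2 with DESeq2 and without WD+alcohol liver 2. Of 8 tested genes, most of which make or remove hydrogen peroxide, which catalase uses, 1 was called. The glycolate oxidase gene Hao1 fell to 63.4 ± 6.64 CPM in WD+alcohol livers, against 104 ± 11.7 CPM in controls (limma-trend adjusted p = 0.00166), and was not called with hepatocyte-marker scaling (log2 fold change -0.32, adjusted p = 0.134).

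No gene was called among 6 that supply P450 enzymes with electrons or that make or break down haem, the P450 and haem list. Of these, 3 had an unadjusted p under 0.05. Among 10 that shuttle and reoxidise NADH none was called, and none had such an unadjusted p. edgeR also called none in either list, and DESeq2 called 1 higher and 1 lower in the first and none in the second. For the P450 and haem list, limma-trend called 1 higher without WD+alcohol liver 4, and 2 higher and 1 lower without control 4. The most abundant of each were Cyb5a at 1168 ± 185 CPM in WD+alcohol livers and 994 ± 56.4 CPM in controls, which was called higher with hepatocyte-marker scaling (log2 fold change 0.61, limma-trend adjusted p = 0.0137), and Ldha at 364 ± 38.7 CPM in WD+alcohol livers and 338 ± 43.9 CPM in controls. Of 8 genes of the pericentral zone, where Cyp2e1 is expressed, 1 was called, the glutamine synthetase gene Glul with 811 ± 147 CPM in WD+alcohol livers and 513 ± 75.7 CPM in controls (limma-trend adjusted p = 0.0183). That call was lost without WD+alcohol liver 5 (adjusted p = 0.0597) and without control 1 (adjusted p = 0.0685), and 2 of the 8 were called without WD+alcohol liver 1. None of 12 regulators of these genes was called by limma-trend or edgeR, 3 had an unadjusted p under 0.05, and DESeq2 called 1 lower. Ctnnb1, the most abundant, had 427 ± 22.7 CPM in WD+alcohol livers and 448 ± 13.5 CPM in controls.

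SREBP target genes, the group to which Acss2 belongs, had 3 of 8 tested members lower and none higher, beside 0.678% of all tested genes called lower. These were Hmgcs1 and Fdps, enzymes of cholesterol synthesis, and Insig1, and the median log2 fold change of the 8 was -0.47. Elovl6 (0.02) and Me1 (0.004) were the 2 with positive log2 fold changes. Insig1, which retains the SREBP complex at the endoplasmic reticulum, was at 12.4 ± 2.98 CPM in WD+alcohol livers and 30.2 ± 10.2 CPM in controls (log2 fold change -1.19, limma-trend adjusted p = 0.00714). Fdps, which makes farnesyl pyrophosphate, was at 7.64 ± 1.42 CPM in WD+alcohol livers and 16.3 ± 5.56 CPM in controls (log2 fold change -0.97, adjusted p = 0.0171), and it was not called with hepatocyte-marker scaling (log2 fold change -0.60, adjusted p = 0.0704). With that scaling 1 of the 8 was called lower, while DESeq2 called 5, and leaving out 1 library gave 2 to 5, the 5 without control 1. The log2 fold change of Acss2 itself was -0.61, and a link between it and these genes was not tested.

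**Figure D4:**
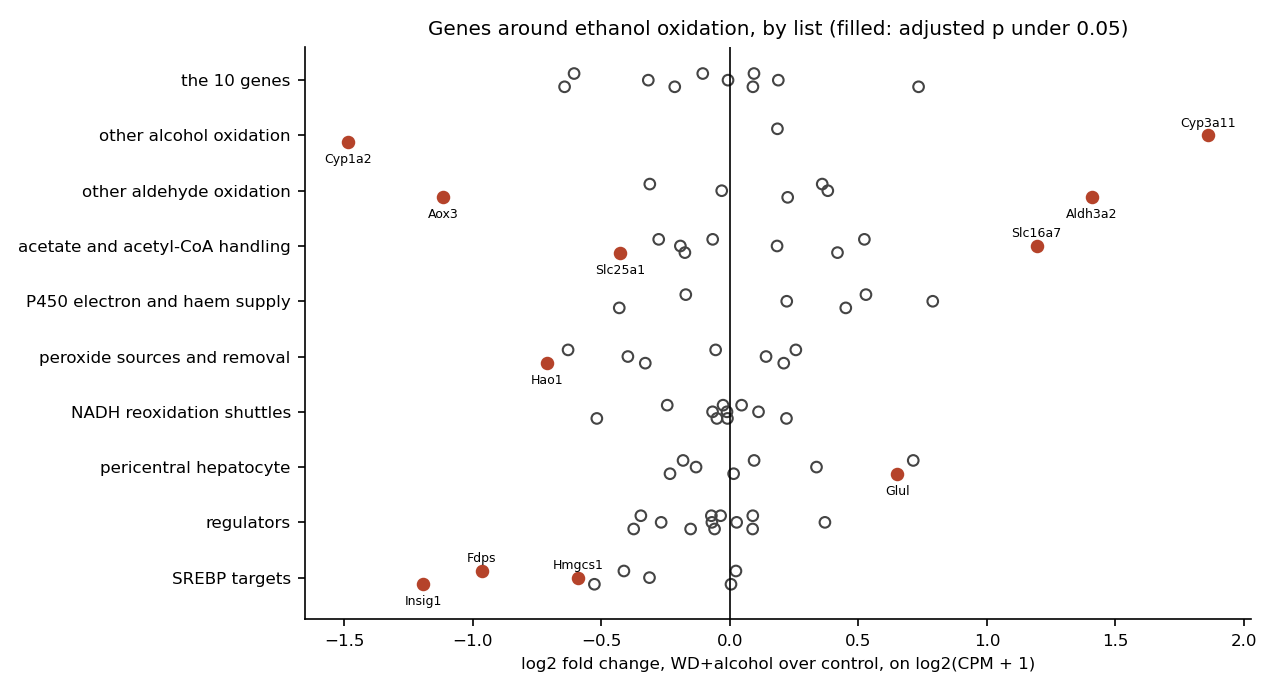
Log2 fold change of every tested gene, WD+alcohol over control, on log2(CPM + 1), with 1 row for the 10 genes and 1 for each list, and filled points for an adjusted p under 0.05. The 10 genes show only open points, and the filled points of the lists include 3 SREBP targets, all negative.

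The genes whose levels over the 9 livers followed a member most closely were sought for Cyp2e1, Adh1 and Aldh2 among 6098 genes with at least 20 CPM. Likeness was the mean absolute difference of log2(CPM + 1) after centring each gene, a description of these livers only. Cyp2e1 was closest to Acsm1 at 0.0762, Fgf1 at 0.0940 and Rprm at 0.106, where the median over all genes was 0.245. Adh1 was closest to Nr1h3 at 0.0676, Nr1d2 at 0.0726 and Sec14l2 at 0.0794, with a median of 0.284. Aldh2 was closest to Ech1 at 0.0506, D8Ertd738e at 0.0643 and Mapk9 at 0.0662, with a median of 0.215. Acsm1 averaged 152 ± 32.1 CPM in WD+alcohol livers and 146 ± 15.3 CPM in controls. Its wider spread in WD+alcohol livers, like that of Cyp2e1, follows from its choice by likeness and is no separate result.

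**Figure D5:**
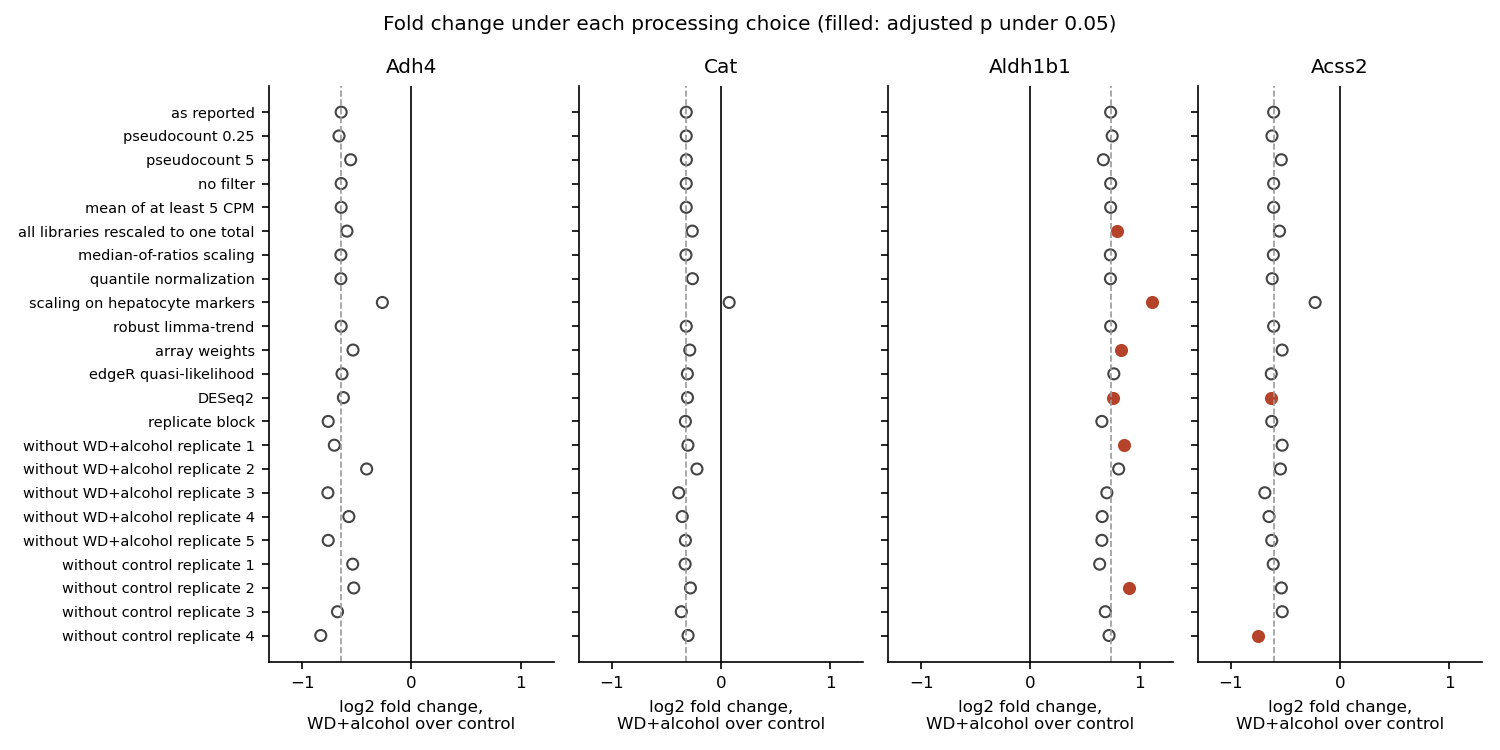
Log2 fold change, WD+alcohol over control, of the 4 genes with an unadjusted p under 0.05, as reported and under each other processing choice, with filled points for an adjusted p under 0.05 and a dashed line at the reported value. Adh4, Aldh1b1 and Acss2 keep their sign throughout, Cat turns to 0.07 with hepatocyte-marker scaling, and only Aldh1b1 and Acss2 have filled points.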

How the data were processed

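Liver RNA of 5 WD+alcohol mice and 4 controls was extracted with Trizol and sequenced as 3′ mRNA libraries, per the labels' protocols. Per the submitters' processing notes, the tools were Trim Galore 0.6.0, cutadapt 1.18, STAR, HTSeq 0.11.0, edgeR 3.28.1 and R 3.6.3, with build GRCm39. The version of STAR, use of strand and treatment of multimapping reads are not given in the sources used here. The deposited values are a signal, CPM scaled with TMM by the authors, for 55253 symbols. All positive values were whole multiples of 1 read (100%, relative tolerance 1e-06), and the recovered reads gave the depths and the count tests. Groups come from the titles, the labels give no batch, and each library was taken as 1 mouse.

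The test was two-sided limma-trend of log2(CPM + 1), run in limma 3.58.1 under R 4.3.3 on the 14759 genes averaging 1 CPM or more, with Benjamini-Hochberg adjustment and a threshold of 0.05. On this scale the fold change of a low gene is understated. Intervals are 95% intervals of the fit and, like the SDs, cover the spread between these 9 libraries. Alternatives were DESeq2 1.42.0 and the quasi-likelihood test of edgeR 4.0.16, both run on recovered reads, pseudocounts of 0.25 and 5, no filter, a mean of at least 5 CPM, other scalings, robust and weighted fits, a replicate block, and leaving out each library. The reference at hand was GRCm38, so coordinates are printed only for RefSeq promoter windows of that build. Transcript ends were compared with BLAST+ 2.17.0+.

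All 10 genes are named whatever their values. Of each other list, the 2 called genes with the smallest p are named, or its most abundant gene where none was called, and 3 genes of closest pattern for Cyp2e1, Adh1 and Aldh2. Some genes of these lists are not reported here and were left out of the lists' counts. The 10 genes and all lists were chosen with earlier results of these data known.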

Additional observations from a re-analysis of the deposited data

Results flagged for a closer look

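Of 20 groups examined, the 10 genes in each of the 2 groups, 1 had a sample that stood far from its group. Adh5 was at 184, 141, 231, 192 and 176 CPM in the WD+alcohol livers, against 166 (control 1), 191, 189.8 and 189 CPM in the controls. The gap between control 1 and the next control was 0.933 of the range of the controls, above Dixon's 95% critical value for 4 samples. Chance flags about 1 in 20 such groups.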

How the results depend on the processing

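Against 338 genes called in all, scaling on hepatocyte markers called 1940, DESeq2 545 and leaving out 1 library 201 (without WD+alcohol liver 5) to 387. Of the 10 genes 0 were called higher and 0 lower. Higher calls became 1 with all libraries set to one total (Aldh1b1, 0.79, adjusted p = 0.0224), with array weights (Aldh1b1, 0.83, adjusted p = 0.0233) and with DESeq2, and 2 with hepatocyte-marker scaling (Aldh1b1 and Aldh2). They ran from 0 to 1 when 1 library was left out. Lower calls became 1 with DESeq2 and ran from 0 to 1 when 1 library was left out. The cause of these changes was not tested. Of 219 values of the 10 genes under 22 alternatives, 192 kept their direction and side of the threshold, 9 newly passed the threshold and 18 changed sign. With hepatocyte-marker scaling, log2 fold changes turned to 0.38 for Adh5, 0.23 for Adh7, 0.0750 for Cat, 0.10 for Acss1 and 0.32 for Ctnnb1, while the median of all genes moved to 0.36. Relative to that median they were 0.13 for Adh1, -0.63 for Adh4, 0.02 for Adh5, -0.13 for Adh7, 0.12 for Cyp2e1, -0.28 for Cat, 0.22 for Aldh2, 0.76 for Aldh1b1, -0.26 for Acss1 and -0.59 for Acss2. Adh5 also turned to 0.0476 with one total, 0.0156 with quantile normalization, 0.0286 with array weights, 0.00448 with edgeR and 0.00528 with DESeq2. With 1 library left out, log2 fold changes ran from -0.0368 to 0.24 for Adh1, from -0.0923 to 0.0846 for Adh5, from -0.25 to 0.0301 for Adh7 and from -0.0330 to 0.18 for Cyp2e1. A mean of at least 5 CPM leaves Acss1 out, so that it has no value there.

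The titles do not say whether replicate numbers pair the mice. Same-numbered livers had correlations of -0.008, -0.31, -0.21 and -0.01 between their deviations from the group means. These gave no sign of pairing but are too few to exclude it. With a replicate block, which leaves WD+alcohol liver 5 without a partner, 112 genes were called, none of the 10 genes was, and Adh5 was at 0.00523. Depth limits Acss1 and Adh7 most, with 10 to 25 and 24 to 58 reads a library.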
